A study of Mus musculus with 6 samples.

Results

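Mature enterocytes, the absorptive cells of the intestinal villus, were examined in single-cell RNA sequencing of mouse small intestinal organoids. A cell was counted as a mature enterocyte when Sis, Slc5a1, Mttp, Apob and Slc2a2 together made up at least 20 of every 10000 of its unique molecular identifiers (UMIs), and Chga and Chgb, which mark enteroendocrine cells, together stayed under 10 of every 10000. Only cells with at least 1000 genes and under 20% of UMIs from mitochondrial genes were considered. By this rule 14836 of 87954 kept cells were mature enterocytes, from 123544 deposited barcodes. The levels of these 7 genes chose the cells, so their values in the class are given as a description and without a test.

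The organoids came from the small intestine of adult mice and were collected on day 3 of culture. Wild-type (WT) organoids received the vehicle DMSO (-EIPA, 2 libraries) or EIPA, an amiloride derivative that blocks Na+/H+ exchange (+EIPA, 2 libraries). The other organoids carried an inducible CRISPR-Cas9 construct with a guide against 1 gene, and were kept without doxycycline (-Dox, 1 library) or with it (+Dox, 1 library). These lines were single clones selected from WT organoids by puromycin resistance after lentiviral delivery, so the -Dox organoids carried the construct too. Live cells were sorted for the -EIPA, +EIPA and -Dox libraries, and live GFP-positive cells for +Dox, so the gate and the editing could not be told apart in that comparison. The question was what the class looked like, how many cells it held and which of its genes differed with EIPA or with doxycycline.

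Enterocytes arise from crypt progenitors and change their expression as they move up the villus. At their apical surface a brush border of actin-filled microvilli carries hydrolases that finish the digestion of sugars and peptides. Carriers take up the products, and absorbed fat leaves the cell as chylomicrons built on apolipoprotein B.

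The cells carried the enterocyte program beyond the rule's own genes. At least 3 of the 5 rule markers were detected in 97.1% to 99.3% of mature enterocytes per library. Sis, which encodes sucrase-isomaltase, gave 51.7% to 56.8% of the summed marker UMIs, and Slc2a2, the basolateral glucose carrier, 2.48% to 3.50%. The share of Slc5a1, the apical sodium-glucose cotransporter, was 14.5% to 17.6% in the WT libraries and 28.1% and 26.9% in -Dox and +Dox. Mttp, which loads lipid onto nascent chylomicrons, gave 12.8% to 14.8% in the WT libraries but 6.53% and 5.84% in the CRISPR libraries, so the marker sum was made up differently in the clonal lines. The 12 enterocyte markers outside the rule, among them Apoa4, Fabp1, Alpi, Lct and Krt20, summed to between 39155 and 52253 counts per 1000000 UMIs of the class (CPM). That was 13.1 to 19.2 times their level in the other kept cells.

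Markers of most other cell types were present at lower levels than in the other kept cells, with enteroendocrine markers as the exception in 2 libraries. The 8 stem cell markers, Olfm4 among them, stood at 0.161 to 0.221 of their summed level in the other kept cells, and the 10 proliferation markers at 0.206 to 0.267. Paneth markers stood at 0.227 to 0.299 and Goblet markers at 0.233 to 0.338 of that level, with a range of 1873 to 8213 and 1271 to 3577 CPM. Tuft markers summed to 1.53 to 10.7 CPM and non-epithelial markers to at most 1.54 CPM, with no UMI of the T cell marker Cd3e in 5 of the 6 libraries. The -EIPA replicate 2 library stood apart in enteroendocrine markers, which summed to 1147 CPM there, against 33.6 CPM in -EIPA replicate 1 and 281 and 268 CPM in the +EIPA libraries. Their ratio to the other kept cells was 1 in -EIPA replicate 2 and 1.63 in -Dox, where they summed to 23.9 CPM, and 0.0514 to 0.757 in the other 4 libraries. Most of it was the hormone Gip, at 786 CPM, and 21 of its 805 mature enterocytes had a summed hormone level of 10 or more per 10000 UMIs. Cells in which the Paneth and Goblet products Lyz1, Defa24, Muc2 and Tff3 together reached 20 per 10000 UMIs were counted too. They made up 7.63% and 29.3% of mature enterocytes in -EIPA replicates 1 and 2 and 11.3% and 33.7% in +EIPA replicates 1 and 2. In -Dox they were 11.5% and in +Dox 34.6%. These shares followed the replicate number in the WT libraries and were highest in +Dox. Among the other kept cells the shares were 18.0%, 29.1%, 21.3%, 39.8%, 16.6% and 46.0% in the same order. Mature enterocytes thus had the lower share in each library but -EIPA replicate 2.

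The limit of 20 cut through a continuous distribution. Between 41 and 125 cells per library lay just outside it, at 19 to under 20 per 10000, and between 49 and 124 just inside, at 20 to under 21. The median of the 12 outside markers in these neighboring cells was 76.8 to 267 per 10000 UMIs just outside and 102 to 244 just inside. Between any pair of libraries 71 to 143 barcode sequences were shared over 15 pairs, and 0 to 4 of the shared barcodes belonged to mature enterocytes in both.

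Mature enterocytes were a larger share of the kept cells in both +EIPA libraries than in both -EIPA libraries. They made up 10.7% (95% exact Clopper-Pearson interval 10.2% to 11.3%) and 4.42% (4.13% to 4.73%) in -EIPA replicates 1 and 2, as 1350 and 805 cells. In +EIPA replicates 1 and 2 they made up 18.9% (18.2% to 19.6%) and 16.6% (16% to 17.2%), as 2494 and 2366 cells. The -EIPA mean was 7.56% ± 4.45 (SD, n = 2) and the +EIPA mean 17.7% ± 1.64 (SD, n = 2). The difference of 10.2 percentage points gave a two-sided exact permutation p = 0.333, the smallest that 2 against 2 libraries can give. Both -EIPA libraries lay below both +EIPA libraries, and the -EIPA libraries differed from each other by more than the +EIPA libraries did. Over all barcodes, with no limit on genes or mitochondrial share, the groups overlapped, at 16.7% and 5.05% against 21.7% and 16.3%.

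In the CRISPR organoids the class made up 18.8% (18.3% to 19.4%, 3314 cells) of the -Dox cells and 37.3% (36.4% to 38.2%, 4507 cells) of the +Dox cells. With 1 library each there was no replicate check, and the intervals cover counting error only. The share in -Dox was above both -EIPA libraries and close to +EIPA replicate 1. The order of the shares across libraries was the same when the marker limit was 10 or 40 for the WT libraries, but -Dox stood above +EIPA replicate 1 at 10 and below it at 40.

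**Figure D1:**
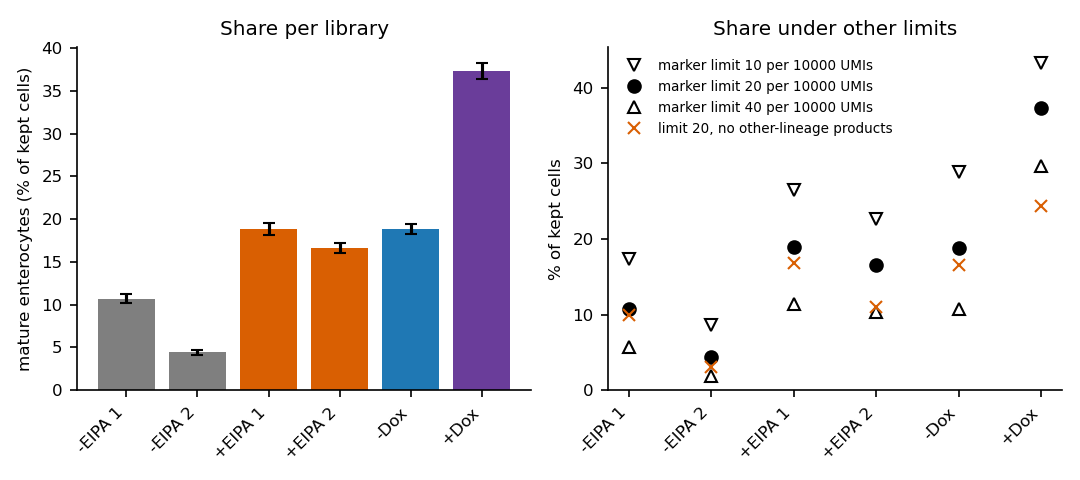
Left, share of kept cells that were mature enterocytes in each library (%, bars, with 95% exact Clopper-Pearson intervals that cover counting error only). Right, the same share with the marker limit at 10, 20 or 40 per 10000 UMIs and, at 20, counting only members without Paneth, Goblet or hormone products; the 2 +EIPA libraries sit above the 2 -EIPA libraries at each setting, and +Dox, at 37.3% as reported, above all others.

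The cells within the class also differed in how strongly they expressed the rule markers. The median marker sum was 43.0 and 35.7 per 10000 UMIs in -EIPA replicates 1 and 2, 48.1 and 48.9 in the +EIPA libraries, 46.0 in -Dox and 87.3 in +Dox. Cells at 100 or more made up 12.7% and 5.59% of mature enterocytes in the -EIPA libraries, 14.0% and 13.9% in the +EIPA libraries, 15.8% in -Dox and 42.8% in +Dox. The +Dox library thus had the strongest expressers, and -EIPA replicate 2 the fewest. Median UMIs per mature enterocyte were 8974 to 16827, lowest in -EIPA replicate 2 and highest in +Dox. The median mitochondrial share was 4.89% to 7.47%, above the 3.22% to 5.12% of the other kept cells in each library, and it reached 8.68% to 12.9% in the cells at 100 or more.

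Apoa4, Apoa1, Lct and Mme stood higher at each higher range of the marker sum within every library. From cells at 20 to under 30 per 10000 to cells at 100 or more, Apoa4, an apolipoprotein of chylomicrons, went from 591 to 5601 CPM in -EIPA replicate 1, from 577 to 3530 in -EIPA replicate 2, from 984 to 4863 and from 774 to 4307 in the +EIPA libraries, from 177 to 2594 in -Dox and from 271 to 2295 in +Dox. Lct, which encodes lactase, was 8.42 to 41.9 times higher in the upper range than in the lower, and Mme, which encodes the membrane peptidase neprilysin, 5.12 to 9.50 times. Krt20, a keratin of differentiated villus cells, was 1.74 to 3.89 times higher. Apoa4, Lct and Mme were highest in the cells at 100 or more in all 6 libraries and Krt20 in 5, as a description of cells ordered by genes of the same program.

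Other genes did not follow that order, among them genes of fat absorption and the brush border. Anpep in -Dox stayed at 7.91 to 9.92 CPM over the ranges, Apoc2 in -EIPA replicate 2 went from 1288 CPM at 60 to under 100 to 964 CPM at 100 or more, and Fabp2, a fatty acid binding protein, ended there at 0.907 of its lower-range level. Enpp3, a nucleotide pyrophosphatase at low level, was lower in the upper range in both CRISPR libraries. Fabp1, a cytosolic fatty acid binding protein, was highest at 30 to under 60 or at 60 to under 100 per 10000 in all 6 libraries and fell back at 100 or more, to 15432 CPM in +EIPA replicate 2 from 27780 at 30 to under 60. Between these ranges of that library the median UMIs per cell went from 15651 to 5995 and the median mitochondrial share from 4.59% to 11.5%, and median UMIs were lowest at 100 or more in all 6 libraries. The part of depth and RNA quality in the Fabp1 levels was not tested. Olfm4, a marker of crypt stem cells, stood at 0.144 to 0.830 of its lower-range level in the upper range, and Mki67, a marker of dividing cells, at 0.100 to 0.815. The immediate early gene Fos stood at 0.298 to 0.821 of its lower-range level, but in all 4 WT libraries it was higher at 100 or more than at 60 to under 100, for example 271 against 249.9 CPM in -EIPA replicate 2. Olfm4 was higher at 100 or more than at 60 to under 100 only in -EIPA replicate 2, where 45 cells lay at 100 or more, and Mki67 there and in +EIPA replicate 1.

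**Figure D2:**
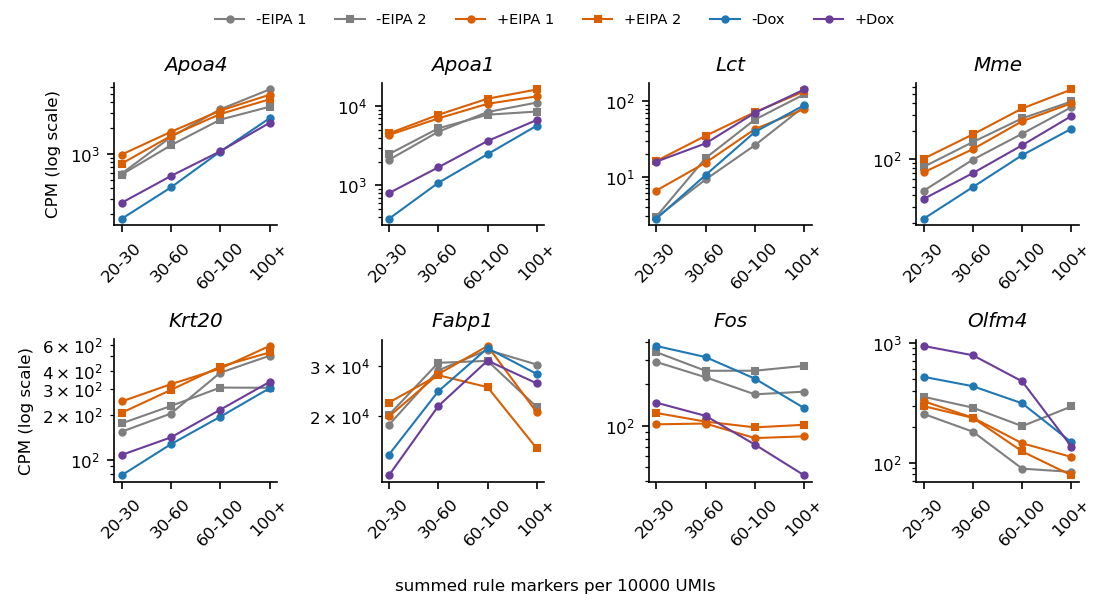
CPM (log scale) of 8 genes in mature enterocytes grouped by the sum of the rule markers per 10000 UMIs, with a line for each library. Apoa4, Apoa1, Lct and Mme climb with the marker sum, Fabp1 turns down at 100 or more, Fos and Olfm4 are lower at 100 or more than at 20 to 30 in each library, and the +EIPA lines for Fos lie below the -EIPA lines in each range.

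The genes that set mature enterocytes apart most from the other kept cells were those of lipoproteins, xenobiotic metabolism and defense. Ranked by the lowest of the 6 libraries' ratios among genes at 100 CPM or more, the leading genes after Slc2a2 were Cyp3a11, a cytochrome P450 of drug and steroid oxidation, at 29.4 times or more, and Reg3a, a secreted antimicrobial lectin, at 27.9 times or more. The apolipoproteins Apoc3, Apoc2, Apoa4 and Apoa1 followed, at 25.5, 21.8, 21.7 and 20.3 times or more. Leap2, a secreted peptide that acts on the ghrelin receptor, stood at 20.2, Mme at 19.4, and Ggt1, a brush-border glutathione hydrolase, at 16.9 times or more. For each of the 4 apolipoproteins the ratio was higher in the -EIPA libraries than in the +EIPA libraries, for example 37.3 and 36.5 against 20.3 and 22.8 for Apoa1. These ratios describe the class and are not a test, since the same cells were sorted by genes of this program.

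EIPA left few gene calls in mature enterocytes when the 2 libraries of each group were compared without pairing. edgeR's quasi-likelihood test on counts summed per library called 1 of 12159 genes at an adjusted p under 0.05 (Benjamini-Hochberg), Fosb, which was lower and made up 0.00822% of the genes tested. At an unadjusted p under 0.05 there were 1151 genes. When the replicate number was added as a block, because same-numbered libraries came from the same experiment, edgeR called 592 genes higher (4.87% of those tested) and 260 lower (2.14%), 7.01% in all, and the count of each gene list in that test is to be read against these shares. That fit leaves 1 residual degree of freedom, and its calls rest on a spread shared across genes. DESeq2 without the block called 105 genes higher (0.864%) and 15 lower (0.123%). In what follows, "blocked" refers to edgeR's test with the replicate number as a block. Unblocked p-values cover no spread beyond these libraries. They too draw on a spread shared across genes, and the spread within groups that they use includes differences between replicate numbers. Blocked p-values rest mostly on the shared spread, not on each gene's own, so a very small one is no measure of replicate agreement. A gene whose replicate pairs went opposite ways, such as Gip, could be called. In sums over a class, a lower level per cell and fewer strongly expressing cells could not be told apart.

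Immediate early genes are transcription factors and feedback regulators that cells switch on within minutes of a stimulus. Of the 15 listed 9 were lower with EIPA in the blocked test (2.14% of all genes). Without the block edgeR called 1 of them lower (0.00822% of all genes) and DESeq2 called 5 (0.123%). Fosb, a subunit of the AP-1 transcription factor, stood at 27.9 and 25.5 CPM under DMSO and at 5.33 and 4.55 CPM under EIPA. The groups lay far apart, with a log2 fold change of -2.35 (SE 0.14, edgeR adjusted p = 0.00997, n = 2 libraries per group). Without -EIPA replicate 1 the adjusted p was 0.055 and no gene was called. Fos, its best known family member, stood at 229 and 291 against 96.8 and 109 CPM, a log2 fold change of -1.24 (SE 0.15) with an edgeR adjusted p = 0.133, and a blocked adjusted p = 1.63e-23. Jun, the dimer partner of Fos, stood at 326 and 378 against 188 and 132 CPM, and Egr1, a zinc finger factor, at 111 and 148 against 57.2 and 64.6 CPM. For all 4 genes both +EIPA libraries lay below both -EIPA libraries, as did 33.2% of all genes tested on this scale, while 12.3% lay above.

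None of the 15 was higher in either test, and 6 passed neither. Beside the 4 above, the blocked calls were Ier2, Atf3, Zfp36, an mRNA decay factor, Btg2, an antiproliferative factor, and Dusp1, a phosphatase of MAP kinases. The median log2 fold change over the list was -0.55, against -0.02 over all genes tested. Jund and Junb were among the 6, at 393 and 282 against 364 and 266 CPM and at 123 and 136 against 102 and 122 CPM, with overlapping groups for Jund and no overlap by a margin of under 1 CPM for Junb. The Fos difference was present at every marker range. In cells at 20 to under 30 per 10000 it stood at 289 and 340 CPM under DMSO and 102 and 124 CPM under EIPA, and in cells at 100 or more at 176 and 271 against 83.8 and 102 CPM.

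The promoters of Sis, Fos and Fosb are shown because Sis gives most of the marker sum, Fosb was called lower and Fos had the smallest unadjusted p among the lower genes at 50 CPM or more. They span 250 bases before to 50 bases after the transcription start in RefSeq on GRCm38.p6, at chr3:72967814-72968113 (minus strand), chr12:85473640-85473939 (plus strand) and chr7:19309996-19310295 (minus strand). All 3 genes were matched. Capitals mark matches on either strand to TTTATNG, to TGACGT, the core of a CREB and ATF site, and to TGANTCA, an AP-1 site. TTTATNG was used as a pattern for CDX binding sites and does not cover every form of them.
Sis: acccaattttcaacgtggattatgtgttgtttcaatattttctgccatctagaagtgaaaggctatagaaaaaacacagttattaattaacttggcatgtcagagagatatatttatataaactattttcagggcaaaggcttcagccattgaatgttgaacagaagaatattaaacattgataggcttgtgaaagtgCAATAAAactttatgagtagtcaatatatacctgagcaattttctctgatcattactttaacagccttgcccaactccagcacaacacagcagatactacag
Fos: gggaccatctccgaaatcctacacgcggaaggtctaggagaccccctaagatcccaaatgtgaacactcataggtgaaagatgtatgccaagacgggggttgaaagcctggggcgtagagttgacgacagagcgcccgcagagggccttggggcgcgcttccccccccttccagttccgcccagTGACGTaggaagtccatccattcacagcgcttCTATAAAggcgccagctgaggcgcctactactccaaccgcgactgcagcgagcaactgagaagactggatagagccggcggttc
Fosb: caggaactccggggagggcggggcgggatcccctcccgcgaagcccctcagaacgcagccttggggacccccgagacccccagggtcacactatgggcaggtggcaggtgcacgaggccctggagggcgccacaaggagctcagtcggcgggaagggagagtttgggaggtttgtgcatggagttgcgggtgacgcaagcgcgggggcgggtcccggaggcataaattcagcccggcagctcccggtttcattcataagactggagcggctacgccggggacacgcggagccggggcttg
The Sis sequence held CAATAAA, the reverse complement of a TTTATNG match, starting 52 bases before the start. The letters tttatga shortly after it do not match TTTATNG and were not marked. In Fos, CTATAAA matched TTTATNG 34 bases before the start, overlapping the position where a TATA box is usual, and TGACGT was found 66 bases before it. Neither Sis nor Fos held TGANTCA, and Fosb held none of the motifs in this window. Among 32851 RefSeq promoters of this length, 10.9% held TTTATNG, 7.51% TGACGT and 7.81% TGANTCA, so a match by itself is a description of the letters.

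The 12 genes at 50 CPM or more with the smallest p among those higher with EIPA did not pass edgeR's adjusted threshold. Both +EIPA libraries lay above both -EIPA libraries for each, as for 12.3% of all genes tested. The genes were picked by p from these same libraries, so their separation and blocked calls are a description. Tm4sf4, a membrane protein of the tetraspanin-like family, stood at 134 and 99.4 CPM under DMSO and 327 and 512 CPM under EIPA, with a log2 change of 1.94 (SE 0.26, edgeR adjusted p = 0.135, blocked adjusted p = 1.23e-50). Guca2a and Guca2b encode guanylin and uroguanylin, secreted peptides that act on guanylate cyclase C to set salt and water transport. Guca2a stood at 128 and 114 against 282 and 452 CPM, and Guca2b at 1130.5 and 964 against 2110.3 and 2462 CPM. Their log2 fold changes were 1.69 (SE 0.24, edgeR adjusted p = 0.142) and 1.22 (SE 0.18, edgeR adjusted p = 0.161), and both were called in the blocked test.

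Enzymes of nucleotide, peptide and ketone metabolism were among the same 12 genes. Gda, a guanine deaminase, stood at 73.7 and 62.2 against 145 and 233 CPM, and Dpep1, a brush-border dipeptidase, at 72.4 and 62.3 against 124 and 137 CPM. Oxct1, which lets cells use ketone bodies, stood at 60.3 and 60.3 against 97.4 and 99.5 CPM. The others were Scin, an actin-severing protein, Anpep, the brush-border aminopeptidase N, Gsdmd, the pore former gasdermin D, Lgals3, Sprr1a and Cyp3a13. All 12 were called in the blocked test, and their log2 fold changes ran from 0.79 for Gsdmd to 1.94 for Tm4sf4.

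On the other side, the 12 genes with the smallest p among those lower at 50 CPM or more held 4 of the immediate early genes, Fos, Egr1, Jun and Atf3. Hbegf, a ligand of the EGF receptor, stood at 115 and 132 CPM under DMSO and 69.1 and 42.4 CPM under EIPA, with a log2 change of -1.06 (SE 0.21, edgeR adjusted p = 0.213). Acat2 and Lss, enzymes of sterol synthesis, and Fads2, a fatty acid desaturase, had log2 fold changes of -0.60, -0.54 and -0.54. The rest were Pdcd4, an inhibitor of translation, Ivns1abp, Add3, a membrane skeleton protein, and Atrx, a chromatin remodeler. Without the block edgeR called none, and in the blocked test all 12 were called lower. DESeq2 without the block called all but Acat2, Lss, Fads2 and Atrx. For each of the 12 both +EIPA libraries lay below both -EIPA libraries, as for 33.2% of all genes tested. They too were picked by p from these libraries, so this is a description.

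**Figure D3:**
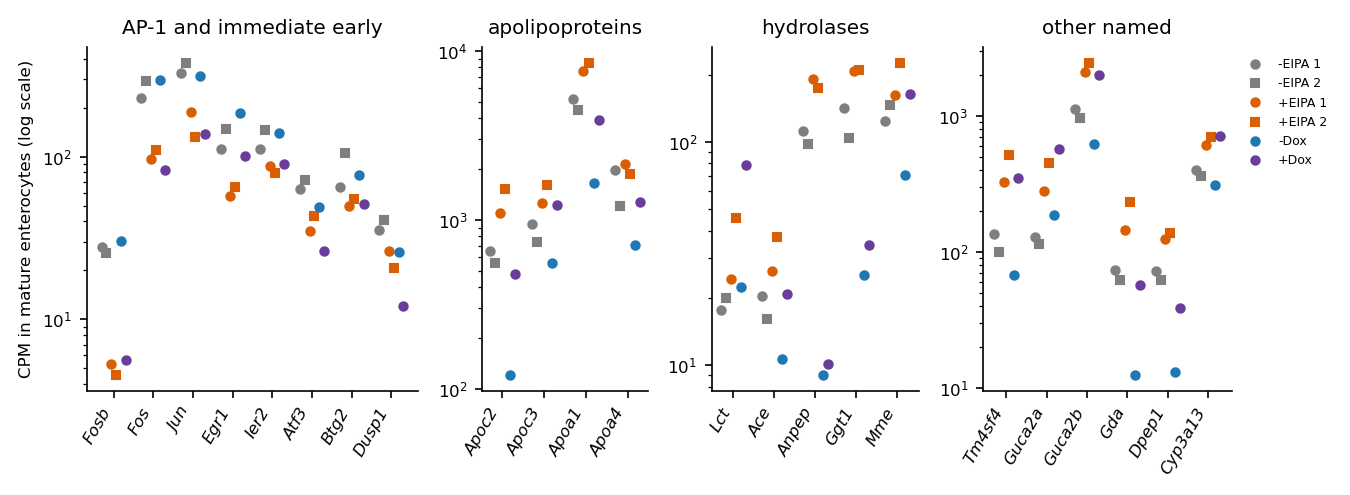
CPM in mature enterocytes (log scale) of immediate early genes, apolipoproteins, hydrolases and other named genes, with a point for each of the 6 libraries. The +EIPA points of the immediate early genes shown lie below the -EIPA points, and those of Tm4sf4, Guca2a, Guca2b and Gda above them, while Anpep and Gda lie lower in the 2 CRISPR libraries than in the 4 WT libraries.

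Brush-border hydrolases were the digestive group with the most blocked calls. Of 19 listed genes 17 were tested, and 13 of them were higher in the blocked test and 0 lower, against 4.87% and 2.14% of all genes tested. Without the block edgeR called none and DESeq2 called 5 higher (0.864% of all genes). The list median of the log2 fold change was 0.49, against -0.02 over all genes tested. Lct stood at 17.7 and 20 CPM under DMSO and 24.2 and 45.3 CPM under EIPA, with a log2 change of 0.99 (SE 0.29, edgeR adjusted p = 0.396). Ace, a dipeptidyl carboxypeptidase, stood at 20.3 and 16 against 26.3 and 37.5 CPM, Anpep at 111 and 97.4 against 192 and 174 CPM, and Ggt1 at 141 and 104 against 208 and 209 CPM. In each of these the groups did not overlap over the whole class, and Lct and Ace differed more between the +EIPA libraries than between the -EIPA libraries. Within ranges of the marker sum, Lct was apart only at 20 to under 30, at 2.86 and 2.95 against 6.53 and 16.1 CPM. In each higher range Lct overlapped, for example at 85.2 and 123.5 against 78.8 and 135.2 CPM at 100 or more. Anpep did not overlap in any range. Among the 12 enterocyte markers outside the rule, 9 were higher in the blocked test and 0 lower, with a median of 0.46. Fabp1 was among the 3 that passed neither test, with a log2 fold change of 0.06 (SE 0.23).

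Genes of sugar handling and carriers of amino acids were counted next. The sugar carriers Slc5a1 and Slc2a2 belong to the rule and were not in these lists. Of 11 genes of sugar uptake, fructolysis and gluconeogenesis, 2 were higher in the blocked test, Fbp1, a gluconeogenic phosphatase, and Sord, which makes fructose from sorbitol. Fbp1 stood at 129.9 and 83 against 126 and 136 CPM, with overlapping groups. The apical fructose carrier Slc2a5 passed neither test, at 91.7 and 68 against 72.9 and 67 CPM. Of 12 amino acid and peptide carriers, 5 were higher and 1, the glutamate carrier Slc1a1, lower in the blocked test. Slc43a2, a carrier of neutral amino acids, stood at 24.8 and 20.9 against 31.4 and 31.7 CPM. Slc6a20a, a carrier of proline, stood at 26.2 and 27.1 against 35.8 and 36.9 CPM. Slc15a1, the proton-coupled peptide carrier, was lower in abundance, at 10.1 and 4.93 against 15.2 and 18.1 CPM, and was called higher in the blocked test and by DESeq2 (adjusted p = 0.0328).

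Apolipoproteins were among the blocked calls of the 22 genes of lipid uptake and lipoprotein assembly. Of the list 9 were higher and 0 lower in the blocked test (4.87% and 2.14% of all genes), with a list median of 0.25 for the log2 fold change. Apoc2, the cofactor of lipoprotein lipase, stood at 654 and 556 CPM under DMSO and 1105 and 1531 CPM under EIPA, with a log2 change of 1.22 (SE 0.21, edgeR adjusted p = 0.184, blocked adjusted p = 2.22e-21). Apoc3, an inhibitor of lipoprotein clearance, stood at 947 and 741 against 1266 and 1603 CPM, and Apoa1, a core protein of high-density lipoprotein, at 5212 and 4463 against 7549 and 8512 CPM. The groups did not overlap for these 3 genes, whereas Apoa4 overlapped, at 1979 and 1203 against 2132 and 1873 CPM, and was called higher in the blocked test (edgeR adjusted p = 0.00195). In cells at 20 to under 30 per 10000, where the marker sum was matched, Apoa1 stood at 2099 and 2479 CPM under DMSO and 4309 and 4519 CPM under EIPA, and Apoc3 at 249.7 and 257 against 527 and 632 CPM. In cells at 100 or more Apoa1 stood at 11051 and 8518 against 13227 and 16147 CPM, while Apoc3 overlapped, at 2736 and 2319 against 2374 and 3268 CPM. The log2 fold change of Apoc3, 0.86 as reported, was 0.51 at a marker limit of 40. Dgat2, which makes triglyceride, was also called in the blocked test, at 64.6 and 61.8 against 80.6 and 88.9 CPM.

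Of 18 genes of the microvillus core and its linkers 17 were tested, with 8 higher and 1 lower in the blocked test (4.87% and 2.14% of all genes) and a list median of 0.24. Cdhr2, a protocadherin that joins microvillus tips, stood at 90.2 and 73.1 against 118 and 138 CPM. Slc9a3r1, a scaffold that anchors ion exchangers at the brush border, stood at 217 and 228 against 293 and 338 CPM. Baiap2l2 was the lower gene, at 71.6 and 89.4 against 56.9 and 53 CPM. None of the 3 overlapped between the groups, and none passed edgeR's unblocked test. DESeq2 without the block called 3 genes of the list higher and 0 lower (0.864% and 0.123% of all genes).

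Transporters of sodium, protons and bicarbonate, which include the exchangers that EIPA blocks, showed no common direction. Of 20 genes 5 were higher and 2 lower in the blocked test (4.87% and 2.14% of all genes), with a list median of 0.04. Slc9a3, the apical exchanger NHE3, stood at 26.1 and 19.2 CPM under DMSO and 23.3 and 19 CPM under EIPA, and Slc9a2, the exchanger NHE2, at 23.1 and 14.6 against 24 and 22.2 CPM. Both overlapped between the groups. Slc9a2, higher in +EIPA within each replicate number, was called higher in the blocked test (edgeR adjusted p = 0.0458). Slc26a3, the chloride-bicarbonate exchanger DRA, stood at 91.6 and 108 against 71.4 and 66.5 CPM and was lower in the blocked test (edgeR adjusted p = 0.00111), as was the chloride channel Cftr. Slc26a6, another anion exchanger, stood at 119 and 116 against 148 and 146 CPM, and the sodium-bicarbonate cotransporter Slc4a7 at 71.4 and 87.3 against 91.1 and 116 CPM, both higher in the blocked test.

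The transcription factors of enterocytes differed little. Of 23 listed factors 1, Maf, was higher and 1, Cdx1, lower in the blocked test, shares of the list close to the 4.87% and 2.14% of all genes. Maf, a factor of late enterocyte differentiation, stood at 27.7 and 31 against 37.8 and 51.1 CPM, and Cdx1, a homeobox factor of intestinal identity, at 60.7 and 80.2 against 53.8 and 47.6 CPM. The nuclear receptors Hnf4a and Hnf4g passed neither test, at 118 and 88.2 against 105 and 88.5 CPM and at 222 and 248 against 214 and 269 CPM, with overlapping groups.

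Of 22 genes of xenobiotic metabolism, 10 were higher and 0 lower in the blocked test (4.87% and 2.14% of all genes), with a list median of 0.33. Cyp3a13 stood at 402 and 364 against 613 and 695 CPM, Cyp3a11 at 191 and 239 against 278 and 416 CPM, and Cyp2c29 at 82.2 and 269 against 133 and 555 CPM. The 2 Cyp3a genes did not overlap between the groups over the whole class. Within ranges of the marker sum, Cyp3a11 was apart only at 20 to under 30. It stood there at 62.3 and 101 CPM under DMSO and 114 and 178 CPM under EIPA. In each higher range Cyp3a11 overlapped, for example at 491 and 721 against 650 and 969 CPM at 100 or more. Cyp2c29, whose paralogs share sequence with it, was higher in both replicate 2 libraries than in both replicate 1 libraries, so its groups overlapped and its unblocked SE was 0.71. Among 17 genes of iron, vitamin A and folate handling, 16 were tested and 5 were higher and 0 lower in the blocked test, including Heph, which oxidizes exported iron, and the ferritin light chain Ftl1.

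Genes that mark positions along the villus were counted too. Of the villus bottom genes 8 of 10 were tested, with 1, the cytokine gene Il18, higher in the blocked test, at 113 and 96.6 against 179 and 146 CPM, and 0 lower. Of 9 villus middle genes 3 were higher and 0 lower, but 2 of these, Slc5a1 and Slc2a2, belong to the rule and are not read as a result. Of 9 villus tip genes tested of 10 listed, 4 were higher and 0 lower (4.87% and 2.14% of all genes), with a list median of 0.42. The 4 were Ada, Apoa4, whose groups overlapped, and Enpp3 and Pmp22, both at low level. In cells without Paneth, Goblet or hormone products, Enpp3 stood at 0.363 and 0.286 against 4.20 and 4.16 CPM. Pmp22 stood there at 5.60 and 3.14 against 9.70 and 8.03 CPM. Ada, the adenosine deaminase of the villus tip, stood at 22.7 and 5.65 CPM under DMSO and 97.7 and 67.3 CPM under EIPA, with a log2 fold change of 2.56 (SE 0.52, edgeR adjusted p = 0.223, blocked adjusted p = 1.51e-91). Its groups did not overlap, although the -EIPA libraries differed widely from each other. Klf4, another tip gene, passed neither test.

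Genes of the regenerating epithelium had a median log2 fold change of 1.64 over the 11 of 13 that were tested. In the blocked test 9 were higher and 0 lower (4.87% and 2.14% of all genes). edgeR called none without the block, and DESeq2, also without it, called 4 higher (0.864% of all genes). Members at a mean of 20 CPM or more lay under that median, at 1.02 for S100a6, 0.78 for Areg, 0.53 for Anxa2 and 0.06 for Krt19. Clu, a secreted chaperone that marks revival stem cells, stood at 1.80 and 16.4 CPM under DMSO and 8.30 and 50.7 CPM under EIPA, and S100a6, a calcium binding protein, at 325 and 855 against 658 and 1561 CPM. Both were higher in the replicate 2 library of each group, and the groups overlapped. Without +EIPA replicate 2 the log2 fold change of Clu was 0.05. Areg, an EGF receptor ligand, did not overlap, at 246 and 273 against 348 and 487 CPM. The stem cell list had 1 gene higher and 1 lower of 8 in the blocked test, and the proliferation list 0 of 10 in either direction.

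Products of other lineages differed between libraries, in part by replicate number. Of 10 Paneth genes, which encode antimicrobial peptides and enzymes of crypt-base cells, 9 were higher in the blocked test (4.87% of all genes), with a list median of 0.97, and of 8 Goblet genes 5 were higher, with a median of 0.48. Both +EIPA libraries lay above both -EIPA libraries for 4 of the Paneth genes and 0 of the Goblet genes, against 12.3% of all genes tested. Without +EIPA replicate 2 the log2 fold changes of Tff3, Zg16 and Defa17 were below 0. Defa24, a defensin whose near-identical paralogs can share reads with it, stood at 1104 and 1589.8 against 1543 and 3668 CPM in mature enterocytes, and at 4457 and 6325 against 6852 and 14953 CPM in the other kept cells. Spink4 and Tff3, Goblet products, stood at 607 and 700.4 against 628 and 1448 CPM and at 441 and 511 against 399 and 867 CPM, high in +EIPA replicate 2. Barcodes with under 1000 genes held Defa24 at 2626 to 14655 CPM, above the mature enterocytes of each library. The part of RNA from other cells in these levels was not tested. The enteroendocrine list holds Chga and Chgb, which the rule used, and neither was called in the blocked test. Of the 9 genes of that list tested, 1 was higher and 3 were lower in the blocked test. The higher one was Gip, whose log2 fold change was -0.79 without the block, since it stood at 18 and 786 CPM under DMSO and 233 and 195 CPM under EIPA, opposite ways in the replicates. In cells without Paneth, Goblet or hormone products, edgeR called 3 of 11909 genes (0.0252%), 2 higher (0.0168%) and 1 lower (0.0084%), and the log2 fold changes of Fos and Apoc2 were -1.31 and 1.19. Of 14 heat shock and ATF4 stress genes 3 were higher, Psat1, Phgdh and Asns of serine and asparagine synthesis, and 1, the chaperone Hsph1, lower in the blocked test.

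The response to EIPA differed between mature enterocytes and the other kept cells in a number of genes that depended on the libraries included. An interaction of class with EIPA in edgeR, over the sums of mature enterocytes and of all other kept cells of each WT library, called 31 of 15203 genes (0.204%), 13 with a higher fold change in mature enterocytes (0.0855%) and 18 with a lower (0.118%). Without -EIPA replicate 1 it called 364 higher and 263 lower, without -EIPA replicate 2 541 and 142, without +EIPA replicate 1 79 and 38, and without +EIPA replicate 2 12 and 18. Slc2a2 and Chgb, which the rule used, were among the latter and are not read as a result. The median difference over all genes was 0.059 on the log2 scale, and -0.045 when libraries were scaled by size alone. Guca2a had a log2 fold change of 1.69 (SE 0.24) in mature enterocytes and 0.95 (SE 0.19) in the other cells, a difference of 0.80 (SE 0.10, edgeR adjusted p = 0.0102). Crip1, a zinc finger protein of the intestine, and Ubl4a, which helps deliver tail-anchored proteins to membranes, differed by 0.73 (SE 0.12, edgeR adjusted p = 0.0355) and 0.64 (SE 0.09, edgeR adjusted p = 0.0165). Gm5485 differed by 0.88 (SE 0.14, edgeR adjusted p = 0.0296). All 4 were higher in +EIPA within mature enterocytes, and Ubl4a and Gm5485 were near 0 in the other cells, at 0.05 and -0.07. Against cells at 5 to under 20 markers per 10000 alone none of the 4 was called, with edgeR adjusted p = 0.617, 0.247, 0.257 and 0.675 in the order Guca2a, Crip1, Ubl4a and Gm5485. Pole3 and Sh3bgrl3, next in the same ranking, were not called, with edgeR adjusted p = 0.0528 and 0.0528.

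The apolipoproteins went the other way in this comparison. Apoa4, Apoc3, Apoa1 and Apoc2 had smaller fold changes in mature enterocytes than in the other cells, by -0.81 (SE 0.09, edgeR adjusted p = 0.00899), -0.79 (SE 0.10, edgeR adjusted p = 0.00899), -0.67 (SE 0.09, edgeR adjusted p = 0.0165) and -0.56 (SE 0.09, edgeR adjusted p = 0.0281). For Apoa1 the log2 fold changes were 0.82 (SE 0.21) and 1.57 (SE 0.09), since the other cells went from 139.9 and 122 CPM under DMSO to 372 and 374 CPM under EIPA. Sult6b2, a sulfotransferase, and 1700016C15Rik differed by -0.63 and -0.66. The other kept cells include cells just under the marker limit, and against those at 5 to under 20 per 10000 alone 5 of 13070 genes were called and none of the 4 apolipoproteins was, with edgeR adjusted p = 0.534, 0.559, 0.639 and 0.464. Of the 15 immediate early genes 0 were called in the interaction, where Fos had log2 fold changes of -1.24 in mature enterocytes and -1.33 in the other cells. Ada and Enpp3 fall outside the rule for named genes and were noted after their values were seen, with differences of 2.30 and 2.52.

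**Figure D4:**
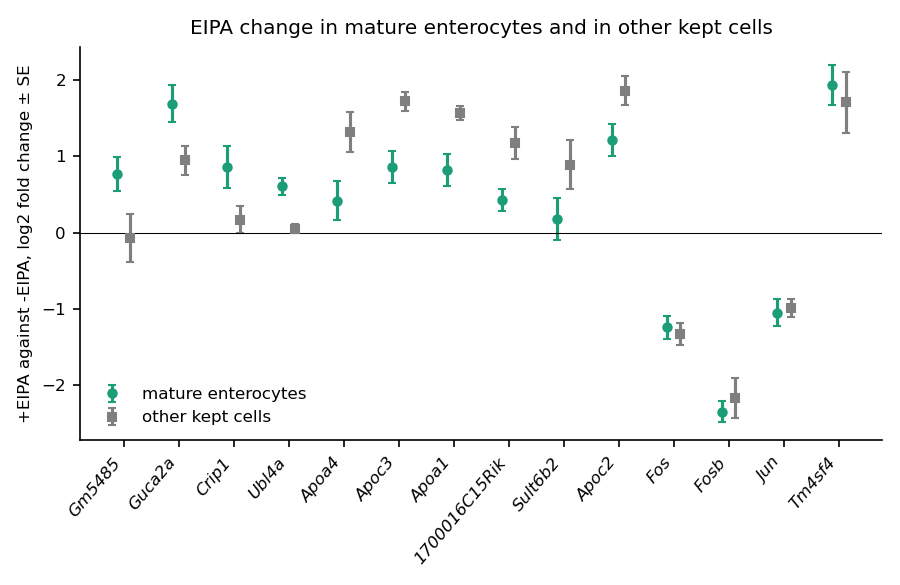
Log2 fold change of +EIPA against -EIPA with its SE (error bars) in mature enterocytes (circles) and in all other kept cells (squares), for the 10 named genes called in the interaction and for Fos, Fosb, Jun and Tm4sf4. The 4 apolipoproteins sit higher in the other cells, Guca2a, Crip1, Ubl4a and Gm5485 higher in mature enterocytes, and the last 4 genes at like values in both.

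The CRISPR libraries could be compared only as single libraries, with no test. Among 2827 genes at 50 CPM or more in -Dox or +Dox, 41 (1.45%) were at least 2 times higher in +Dox mature enterocytes and 12 (0.424%) at least 2 times lower. Among the 15939 genes with a UMI in both libraries, at any level, the balance was the opposite, with 977 (6.13%) at least 2 times higher and 1118 (7.01%) at least 2 times lower. Fos stood at 295 CPM in -Dox and 83.2 CPM in +Dox, with 95% Poisson intervals of 289 to 300.2 and 81.3 to 85.2 that cover counting error only. Jun stood at 313 and 138 CPM, Fosb at 30.1 and 5.64 CPM, and Hbegf at 109 and 38.8 CPM. A gene could pass the limit of 50 CPM through only the library where it was high. Lists are therefore described over the members with a UMI in both libraries, in a choice made after seeing the data. Of the 15 immediate early genes, all with a UMI in both, 0 were higher in +Dox and 4 were at least 2 times lower (7.01% of the 15939 genes), with a median log2 ratio of -0.61. Of all 15939 genes, 44.3% were higher in +Dox, with a median of -0.05. Car2, a carbonic anhydrase, had no UMI in either CRISPR library, which allows up to 0.0992 CPM in -Dox and 0.0432 CPM in +Dox by the upper Poisson limit, against 6.64 to 12.6 CPM in the WT libraries.

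Among genes at 50 CPM or more in -Dox or +Dox, the 10 with the highest ratio of +Dox over -Dox held Paneth and Goblet products and absorptive genes. The ranking is a description, since 5430427M07Rik, Ang4, Mmp7, Zg16, Gda, Reg3b and Reg4 reached 50 CPM only in +Dox and, of the 10 with the lowest ratio, Dmbt1, Hbegf, Zbtb38 and Tcim only in -Dox. 5430427M07Rik stood at 3.04 and 57.5 CPM in -Dox and +Dox. Ang4, Mmp7 and Lyz1, Paneth products, were 6.61, 4.83 and 3.83 times higher in +Dox, and Zg16 and Reg4, secreted lectins, 4.73 and 3.79 times. Of the 10 Paneth genes 8 were at least 2 times higher and 2 at least 2 times lower, and of the 8 Goblet genes 5 were at least 2 times higher (6.13% and 7.01% of the 15939 genes were higher and lower by that much), where 34.6% of the +Dox and 11.5% of the -Dox mature enterocytes carried such products. Without cells with Paneth, Goblet or hormone products the counts were 32 higher and 13 lower of 2801 genes. In those cells Zg16 stood at 16.1 CPM in both libraries, Lyz1 at 121 and 278 CPM, Mmp7 at 9.60 and 27.2 CPM, Reg4 at 5.34 and 13.5 CPM and Ang4 at 11 and 53 CPM. These cells were picked for low Lyz1, Defa24, Muc2 and Tff3, so the levels of such products in them are not read as a result. The filter leaves out genes of low level, and of the 12 regenerative genes with a UMI in both libraries 10 were higher in +Dox, 6 of them by at least 2 times (6.13% of the 15939 genes), with a median log2 ratio of 1.18. Clu stood at 0.269 and 10.6 CPM in -Dox and +Dox. The remaining genes of the first 10 were Tm4sf4 at 67.5 and 352 CPM, Gda at 12.4 and 56.6 CPM, Reg3b at 24.1 and 102 CPM, and Apoc2 at 121 and 478 CPM.

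At the lower end, Dmbt1, a secreted scavenger receptor of mucosal defense, stood at 87.1 and 21.4 CPM, and Gm26917, a predicted gene, at 306 and 92 CPM. Selenbp1, Zbtb38, Fgfbp1, 2610528A11Rik and Tcim completed the first 10 beside Fos, Jun and Hbegf. Selenbp1, a selenium binding protein, stood at 263 and 104 CPM, and Fgfbp1, a carrier of fibroblast growth factors, at 282 and 131 CPM. These 2 genes had log2 fold changes of -0.18 (SE 0.14) and -0.65 (SE 0.17) with EIPA, the first not called in either test and the second lower in the blocked test.

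The genes furthest apart in +Dox were compared with the blocked EIPA calls, from libraries that share no control. The genes were chosen by a mean of 50 CPM or more in the WT libraries and a UMI in both CRISPR libraries, after the data were seen. Beyond that UMI the CRISPR levels did not choose them. The mean was over the -EIPA and +EIPA libraries together, so a gene could pass through its +EIPA level, and the shares are a description. Of 2412 such genes, 34 were at least 2 times higher in +Dox, and 29 of these (85.3%) were higher and 1 lower with EIPA, against 232 (9.62%) and 64 (2.65%) of the 2412. The 29 were 12.5% of the 232. Paneth and Goblet products, Lyz1, Defa24 and Tff3 among them, were part of the 29. Cells with such products made up 34.6% of +Dox and 11.5% of -Dox mature enterocytes, and the overlap was not counted without them. Of the 11 at least 2 times lower, 8 (72.7%) were lower and 1 higher with EIPA, and the 8 were 12.5% of the 64. Among the digestive genes, Lct stood at 22.4 and 78.7 CPM in -Dox and +Dox, Apoa1 at 1647 and 3872 CPM, Apoc3 at 559.5 and 1227 CPM and Mme at 70.8 and 163 CPM. Guca2a and Guca2b stood at 186 and 566 CPM and at 624 and 2008 CPM, each higher in +Dox. Of the 19 hydrolases 17 had a UMI in both libraries and 15 of these were higher in +Dox, 2 (6.13% of the 15939 genes) by at least 2 times, with a median log2 ratio of 0.45. Of the 23 transcription factors 6 were higher in +Dox, with a median of -0.18. The +Dox members also had a higher marker sum than the -Dox members. At a matched marker sum of 20 to under 30 per 10000, Apoa1 stood at 379.8 CPM in -Dox and 799.7 CPM in +Dox, and Fos at 377 and 147 CPM. At 100 or more, Apoa1 stood at 5667 and 6679 CPM, and Fos at 134 and 43.8 CPM.

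**Figure D5:**
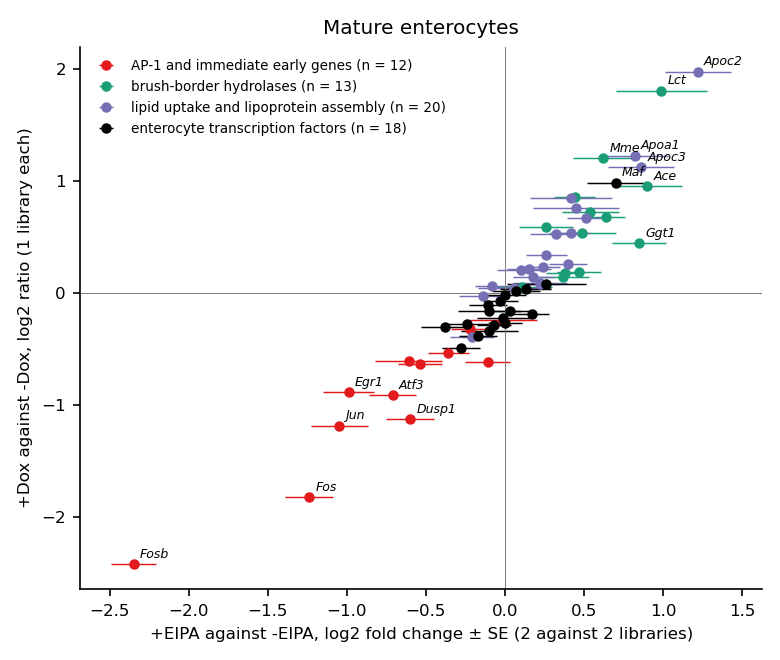
Log2 ratio of +Dox over -Dox (1 library each, no error available) against the log2 fold change of +EIPA over -EIPA with its SE (2 libraries per group) in mature enterocytes, for list members at a mean of 20 CPM or more in the WT libraries and 20 CPM or more in a CRISPR library, with Fosb added. Immediate early genes lie at the lower left, the apolipoproteins, Lct and Mme at the upper right, and most transcription factors near 0, with Maf beside the apolipoproteins.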

How the data were processed

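Live single cells (live GFP-positive cells for +Dox) of 6 organoid libraries were profiled. The authors counted UMIs per gene and barcode with Cell Ranger 6.1.2 against mm10 (GRCm38), per the submitters' processing notes, and deposited raw counts of 32285 genes without normalization, which were used here as deposited. The members and the gene lists were chosen with earlier results of these data known.

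Counts of mature enterocytes were summed per library, from 8312505 to 85415006 UMIs, and depth therefore limits -EIPA replicate 2 most. -EIPA and +EIPA (n = 2 each) entered edgeR 4.0.16 (R 4.3.3), with TMM scaling, the filterByExpr filter and the quasi-likelihood F test without a block on these 4 libraries. Adjusted p-values follow Benjamini and Hochberg across all tested genes (threshold 0.05), and DESeq2 1.42.0 was an alternative. The SE is the fold change over the square root of F. Nothing in the labels states that the libraries come from separate animals. Replicate numbers mark the same experiment in the study's source data, and such libraries deviated together from the means of their groups (r = 0.471 across 12159 genes, which are not independent). Shares were compared by a two-sided exact permutation test with scipy 1.17.1 in Python 3.11.15 (numpy 2.4.6, pandas 2.3.3). -Dox and +Dox, 1 library each, were compared by ratios among genes at 50 CPM or more. CPM is a gene's UMIs per 1000000 UMIs of the class in that library.

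Named genes were, at a mean of 50 CPM or more, up to 12 called genes in each direction by size of change, filled up by smallest p where fewer were called, and likewise 6 in each direction for the interaction. The 10 highest and lowest ratios in +Dox, the 20 leading genes against the other kept cells at 100 CPM or more, the markers and 2 to 4 members per list at 20 CPM or more by size of change were added. Junb, Jund, Slc9a2, Slc9a3, Slc15a1, Hnf4a, Hnf4g, Car2 and members given by name as blocked calls fall outside this rule and were picked with their values known. A few genes, the target of the guide among them, are not reported here. Doublets were scored with Scrublet in scanpy 1.11.5. Its automatic threshold marked under 0.5% of cells in 3 libraries, so doublets were kept and the 10% of cells with the highest score were removed in an alternative added after the data were seen. Counts were simulated for the EIPA comparison (12159 genes, 100 changed at each size). On them edgeR recovered 95% of 2-fold and 100% of 4-fold changes with 5.34% of its calls false. The blocked fit recovered 88% and 100% with 2.59% false, and DESeq2 87% and 100% with 2.6% false. The simulation gave every gene the same spread and no difference between replicate numbers, unlike these libraries. Its rates therefore do not carry over to the calls reported here.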

Additional observations from a re-analysis of the deposited data

Results flagged for a closer look

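For 10 named genes the change with EIPA differed between mature enterocytes and the other kept cells of the WT libraries by edgeR's interaction test. On the log2 scale the change was larger in mature enterocytes by 0.88 for Gm5485, 0.80 for Guca2a, 0.73 for Crip1 and 0.64 for Ubl4a. It was smaller, with differences of -0.81 for Apoa4, -0.79 for Apoc3, -0.67 for Apoa1, -0.66 for 1700016C15Rik, -0.63 for Sult6b2 and -0.56 for Apoc2. Against cells at 5 to under 20 markers per 10000 alone none of the 10 was called, with edgeR adjusted p from 0.247 to 0.675. The other cells hold these 6 transcripts at low levels, for example Apoa4 at 27.5 to 98.4 CPM in the WT libraries against 1203 to 2133 CPM in mature enterocytes, and barcodes with under 1000 genes held Apoa4 at 165 to 851 CPM. The part of free RNA in the difference was not tested.

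Among the 35590 barcodes that failed the limits on genes and mitochondrial share, 8211 (23.1%) reached the marker limit of mature enterocytes and were left out of the class. They were 2345 and 482 without EIPA, 1976 and 736 with it, 1298 in -Dox and 1374 in +Dox. With at least 500 genes and no mitochondrial limit, mature enterocytes made up 17.5% and 5.36% of the -EIPA cells and 23.6% and 18.0% of the +EIPA cells. Over all barcodes, with no limit on genes or mitochondrial share, they made up 16.7% and 5.05% against 21.7% and 16.3%, and the groups overlapped.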

How the results depend on the processing

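The difference in the share of mature enterocytes was positive in every alternative, at 6.91 to 11.5 percentage points, and 7.04 to 13.3 without any single library. Over all barcodes it was 8.13 points and the groups overlapped, in a choice made after seeing the data. The replicate block gave an exact p = 0.5, the smallest that 2 pairs allow. The number of genes called with EIPA depended most on the fit, at 852 with the replicate block, 120 with DESeq2 (1179 adjusted p not given), 428 without the filter on low counts, 17 at 20 to 60 markers per 10000, 2 under stricter limits on cells (2000 genes, 10% mitochondrial UMIs), 2 without the 10% of cells highest by Scrublet score, 2 without cells with Paneth and Goblet products and 3 without hormone products too. Leaving out a single library gave 0 to 59 genes, with 0 without -EIPA replicate 1 (1324 at an unadjusted p under 0.05) and 59 without +EIPA replicate 1. Within marker ranges the counts were 29 at 20 to 30, 9 at 30 to 60, 1 at 60 to 100 and 4 at 100 and over. These ranges were a choice made after seeing the data. Interaction calls were 361 without the filter, 83 with DESeq2 (13263 not given) and 5 against cells at 5 to under 20 markers. They were 30 to 683 without a single library, at 627 without -EIPA replicate 1, 683 without -EIPA replicate 2 and 117 without +EIPA replicate 1. For +Dox against -Dox in mature enterocytes, 2095 genes were at least 2 times apart among those with a UMI in both libraries, with no minimum level.

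Among named genes the sign turned for Fabp1 by library size (-0.03) and at marker limit 40 (-0.12), Slc2a5 at 20 to 60 markers (0.09) and Zg16 without the 10% of cells highest by Scrublet score (-0.46). Leaving out a single library turned it for Slc2a5 (-0.33 to 0.17), Cyp2c29 (-0.31 to 2.14), Reg3b (-0.28 to 0.51), Klf4 (-0.09 to 0.77), Zg16 (-0.49 to 1.61), Tff3 (-0.18 to 0.98), Defa17 (-1.92 to 3.3) and Phgdh (-0.02 to 0.87). The library was +EIPA replicate 2 for Cyp2c29, Reg3b, Zg16, Tff3 and Defa17, +EIPA replicate 1 for Phgdh, -EIPA replicate 1 for Slc2a5, and -EIPA replicate 2 for Klf4. The causes were not tested. The planned removal of cells that Scrublet calls doublets was not run, because its threshold marked almost none in 3 libraries. The depth of -EIPA replicate 2, 805 cells, limits genes of low level.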
